A study of Mus musculus with 45 samples.

Results

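The Notch pathway genes described here are 10 genes given by name, with no threshold on a measured value. They are the ligand genes Dll1, Dll3 and Jag1, the receptor genes Notch1 and Notch2, the target genes Hes1, Hes5, Hey1 and Heyl, and the related gene Hes6. Of these, 9 had a row among the 23575 genes of the gene table. Heyl was not analysed here.

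Notch receptors are cut when a ligand on a neighbouring cell binds them, and the freed receptor fragment enters the nucleus and joins Rbpj on DNA. Hes and Hey genes are the best known targets of that complex and encode repressors of the basic helix-loop-helix family. In the embryonic brain Hes1 and Hes5 hold neural progenitors back from becoming neurons, while Dll1 presents the signal to neighbouring cells. Hes6 is set apart from its relatives because its product opposes Hes1 and favours neuronal differentiation.

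The study followed mouse neural progenitor cells to induced pluripotent stem cells by Nanopore long-read RNA sequencing in 45 libraries. The progenitors were made from O4G, an Oct4-GFP embryonic stem cell line that comes from R1 and reports Oct4 promoter activity as GFP. They were wild type, or stably transfected with a doxycycline-inducible factor set whose genotype is labelled OKMS-Luciferase-AS or OKS-Luciferase-AS, sets that differ in name by Myc. Libraries were of 2 kinds: 22 R9 libraries were direct cDNA of poly(A)-enriched RNA, and 23 R10 libraries were PCR cDNA of total RNA.

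In their own medium with EGF and FGF-2, progenitors of each library kind comprised 2 wild-type, 1 OKMS and 1 OKS library, and the factor-carrying ones, uninduced, count as day 0. The medium control was wild-type progenitors after 2 days of serum, LIF and 1 µg/mL doxycycline (FBS-LIF with doxycycline), with 1 library in R9 and 2 in R10. In the same medium, the induced OKMS and OKS cells were sampled once each in R9 at days 2, 4, 6, 10, 14 and 20. The R10 samples of induced cells were both systems at days 2, 6 and 18 and OKMS alone at days 4 and 10. A further set had been switched to 2i-LIF, which holds LIF and inhibitors of GSK3 and MEK without serum: OKMS at days 14 and 20 and OKS at day 20 in R9, and both systems at day 18 in R10. The reference was embryonic stem cells grown in 2i-LIF, with O4G and R1 sequenced once each in R9, and with O4G (2 libraries), R1 clone 3 (2 libraries) and R1 (3 libraries) in R10. The labels do not say that libraries of one group came from separate cultures, so the p-values measure the spread between these libraries, which may be technical.

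Gene levels are CPM, reads of the gene scaled to a common library total. Depth was 447990 to 1390424 reads in R9 and 566599 to 4236442 in R10. A gene was called when its limma adjusted p was under 0.05 and its difference on the log2(CPM + 1) scale was at least 1. The progenitors lacked reads of Sox1, 1 of the 8 neural progenitor markers listed, in all 8 libraries, while the summed level of that list was 5374 to 8533 CPM. In the 7 R10 stem cell libraries 8 pluripotency markers summed to 11256 to 13878 CPM, against 17.1 to 28.0 CPM in the 4 R10 progenitor libraries.

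The R10 libraries fell into sets that coincide with conditions. The share of reads on mitochondrial genes was 0.124 to 0.319% in the wild-type libraries of both media and in 1 R1 stem cell library, the only stem cell library whose label carries no n number. Factor-carrying libraries of day 10 or earlier had 0.730 to 1.64%, while day 18 and the numbered stem cell libraries had 1.56 to 2.35%. Hes1 was counted differently across these sets. The authors deposited transcript TPM beside gene CPM, and the summed TPM of Hes1 divided by its gene CPM was 1.06 to 1.40 in the first set of 5 libraries. That ratio was 0.265 to 0.714 in the next set of 8, and 0.0648 to 0.1704 in the last set of 10. In R9 it was 0.559 to 1.27 over all 22 libraries. For Hes6 the ratio stayed between 0.595 and 1.45 in every set, and its median over all genes with enough signal was 0.538 to 0.703 in each library. Summed TPM is therefore given beside the R10 comparisons of Hes1 below, other than the interaction with R9, and what makes the scales differ was not tested.

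**Figure D1:**
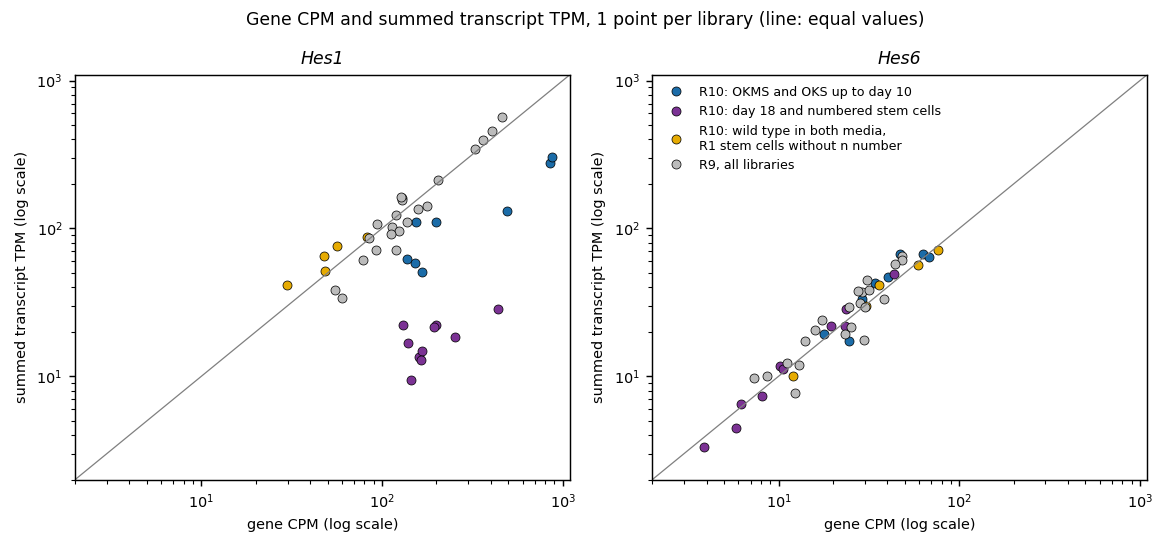
Gene CPM (x axis, log scale) against summed transcript TPM (y axis, log scale) for Hes1 and Hes6, with 1 point per library coloured by library set and a line of equal values. Hes1 points of the R10 day 18 and numbered stem cell libraries lie far below the line at ratios of 0.0648 to 0.1704, while Hes6 points follow the line in every set.

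Hes5 is shown by sequence because it was the member that rose most after induction and because its promoter window held the site bound by Rbpj. RefSeq promoter windows (GRCm38.p6, from 250 bases before to 50 bases after the start) were found for 7 of the 10 members, and those of Hes1, Hey1 and Heyl were not searched. Of the 7 members, Hes5 alone held the site. The site was searched as GTGGGAA on both strands, and 6.38% of all 32851 windows of that length held it. The Hes5 window held 2 copies, at 226 and 83 bases before the start, which 0.256% of all windows did (2 or more copies). The 250 bases before the Hes5 start, chr4:154960673-154960922 on the plus strand, are given below with both copies in capitals. The copy farther from the start lies on the minus strand and so reads TTCCCAC.

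Hes5 promoter: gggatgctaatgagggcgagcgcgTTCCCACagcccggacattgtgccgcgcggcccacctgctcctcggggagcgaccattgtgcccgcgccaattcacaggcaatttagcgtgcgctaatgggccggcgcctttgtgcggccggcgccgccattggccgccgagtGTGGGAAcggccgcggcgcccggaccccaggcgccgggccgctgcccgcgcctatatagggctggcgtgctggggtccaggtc

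The N-box, CACNAG, to which Hes proteins bind, was not among the letters of the Hes5 window, and 42.5% of all windows held it. A match of letters is a description of the sequence and does not show that a protein binds there.

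**Figure D2:**
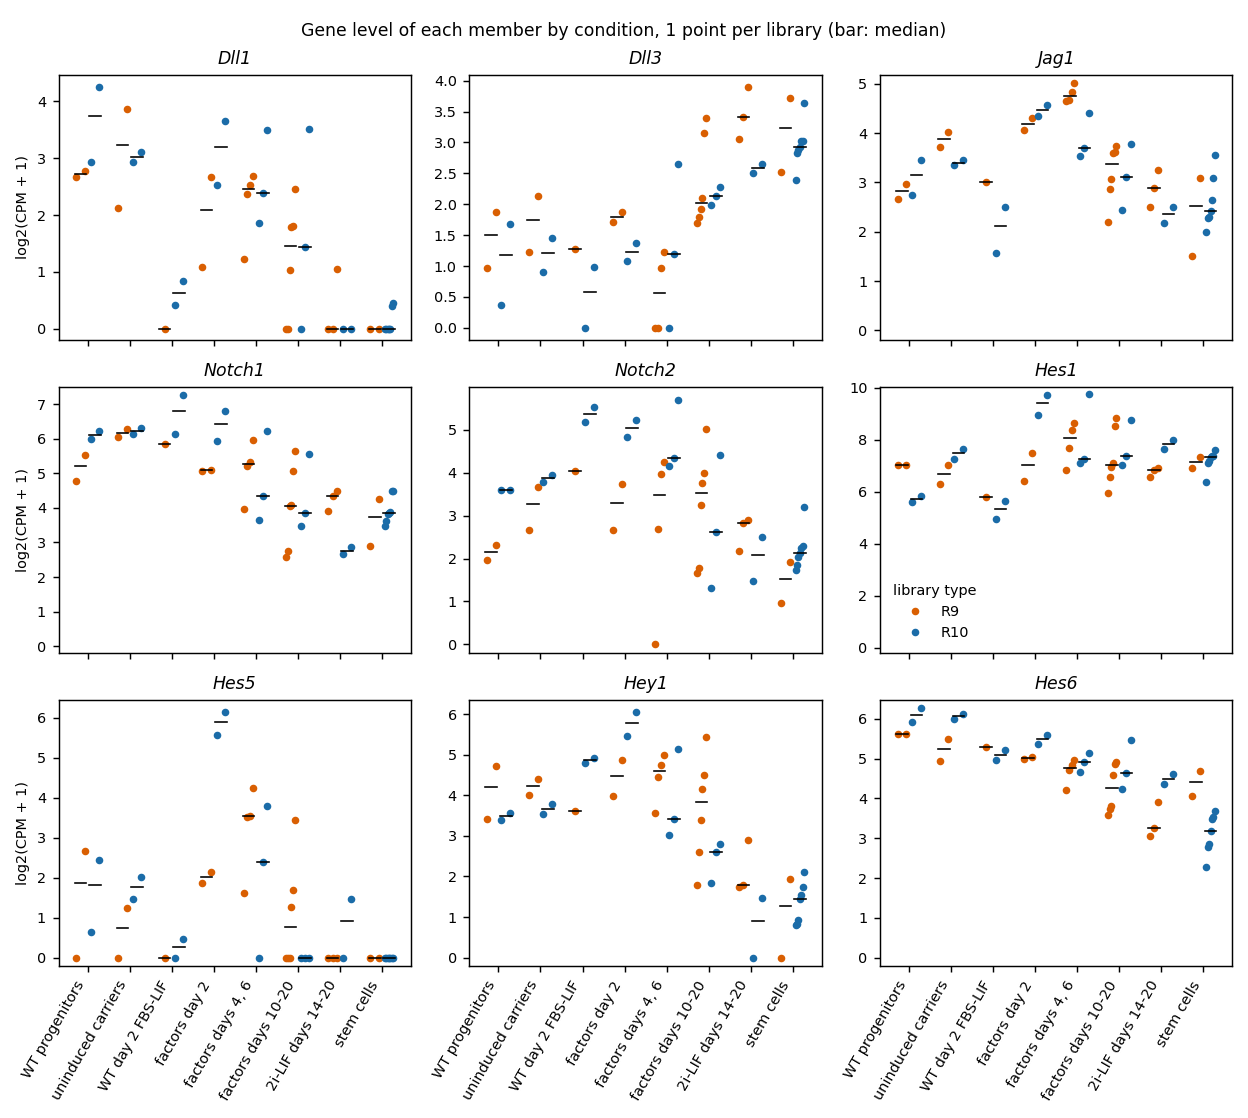
Level of each of the 9 members, as log2(CPM + 1) on the y axis, in 8 conditions on the x axis, with 1 point per library, R9 and R10 in separate colours and a bar at the median. Hes5 stands at 46.6 and 69.0 CPM in the R10 factor libraries of day 2 and at 0 in all 9 stem cell libraries, and Notch1, Hes6 and Hey1 are lower in R10 stem cells than in R10 progenitors without overlap.

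Embryonic stem cells and progenitors differed in most members. In R10, with 7 stem cell and 4 progenitor libraries, Dll1, Notch1, Notch2, Hey1 and Hes6 were lower in stem cells and Dll3 was higher, while Jag1 and Hes1 did not pass. That is 6 of 8 members tested, in a comparison that called 45.8% of all 15415 genes tested, 22.4% higher and 23.5% lower. The median difference of the 8 members was -1.87, against 0.0059 over all genes. Dll1 passed the filter of at least 1 CPM through the progenitor libraries alone, and Dll3 would not have passed it without the stem cell libraries. The place of each in the count and in the median rests on its being high there. These are bulk samples, so fewer cells of a type and less RNA per cell cannot be told apart. The numbered stem cell libraries belong to another R10 library set than all 4 progenitor libraries. Between those libraries, cell type and library set cannot be told apart for any gene of this comparison. Marker sums of several cell types separated without overlap as well. In R10 stem cells, neural progenitor markers summed to 176 to 378 CPM (6 of 8 above 1 CPM) against 5846 to 7028 CPM in progenitors, and astrocyte markers to 21.2 to 46.9 CPM (4 of 6, with Aqp4 and S100b at 0) against 124 to 246 CPM. Mesenchymal markers summed to 4.00 to 13.5 CPM (2 of 6, with Postn at 0) against 14.9 to 29.8 CPM. Epithelial markers were higher in stem cells, at 117 to 312 CPM (5 of 5) against 0 to 7.59 CPM, and so were endothelial markers, at 38.1 to 84.4 CPM (3 of 4, with Cdh5 at 0) against 1.75 to 3.44 CPM. Their part in the members' differences was not tested.

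Among the ligands, Dll1 stood at 6.59 (OKMS), 7.59 (OKS), 18.1 and 6.60 CPM (wild type) in the R10 progenitors. It was at 0 in 5 of the 7 stem cell libraries and at 0.328 and 0.373 CPM in the other two. The pooled reads were 108 against 2, a ratio of 112 with a 95% interval of 30.3 to 939 that covers counting error only, and the fitted log2 difference was -3.18 ± 0.26 (SE, limma adjusted p = 3.42e-08). In R9 the pooled reads of Dll1 were 22 in progenitors and 0 in stem cells, which is at least 5.01-fold lower when the floor is set at 3 reads over the stem cell group.

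Dll3, a divergent ligand that acts inside the signal-sending cell and dampens Notch, went the other way. Its R10 level was 4.27 to 11.4 CPM in stem cells, with a median of 6.58, and 0.879 (OKMS), 1.75 (OKS), 2.22 and 0.287 CPM (wild type) in progenitors. The groups did not overlap, and the log2 difference was 1.85 ± 0.28 (SE, limma adjusted p = 2.97e-05). In R9 Dll3 stood at 4.73 and 12.1 CPM in stem cells against 0.968 to 3.37 CPM in progenitors, with a log2 difference of 1.56 (limma adjusted p = 0.0474).

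Jag1, a ligand of the Serrate type, ranged from 2.99 to 10.8 CPM in R10 stem cells and from 5.72 to 10.04 CPM in progenitors. The ranges overlapped and the log2 difference of -0.64 did not pass (limma adjusted p = 0.0603). On summed TPM, a scale chosen after seeing the data, the same difference was -1.21 and passed (limma adjusted p = 0.00685). Summed TPM over CPM of Jag1 was 0.185 to 0.585 in these progenitors and 0 to 0.172 in the numbered stem cell libraries. In the R1 library without n number that ratio was 1.16.

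Both receptor genes were lower in stem cells. Notch1 ranged from 10.2 to 21.5 CPM with a median of 13.6 in the stem cell libraries, and stood at 70.3, 78.3, 74.3 and 63.4 CPM in the OKMS, OKS and both wild-type progenitors. The log2 difference was -2.23 ± 0.20 (SE, limma adjusted p = 1.03e-07), and in R9, where 36.0% of 15746 genes were called, it was -2.09 (limma adjusted p = 0.0198). Notch2 ranged from 2.32 to 8.22 CPM in stem cells with a median of 3.37, against 14.5, 12.9, 11.1 and 11.2 CPM in the same progenitors, a log2 difference of -1.52 ± 0.26 (SE, limma adjusted p = 9.47e-05). The highest Notch2 value of the stem cells, 8.22 CPM, belonged to the R1 library without n number. With that library as the only stem cell library, the Notch2 difference was -0.53, under the fold threshold, and that of Dll3 was 1.91. On summed TPM the Notch2 difference was -0.68, under the fold threshold (limma adjusted p = 0.0102), and in R9 it was -1.22 (limma adjusted p = 0.130).

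The Hes and Hey genes split. Hes6 ranged from 3.87 to 11.95 CPM with a median of 8.12 in R10 stem cells and stood at 63.3, 68.4, 76.2 and 59.1 CPM in the progenitors, a log2 difference of -2.96 ± 0.25 (SE, limma adjusted p = 3.75e-08). In R9 the same gene stood at 24.6 and 15.8 CPM in stem cells and at 29.6 to 48.4 CPM in progenitors, a difference of -1.04 (limma adjusted p = 0.0257). The R10 difference was larger in size by 1.92 than the R9 one (R10 minus R9, -1.92 ± 0.41, SE), and that gap passed a test over all genes (limma interaction, adjusted p = 0.0170), a test that called 3.40% of all genes. Hey1 ranged from 0.747 to 3.28 CPM in stem cells, with a median of 1.74, against 9.53 to 12.9 CPM in progenitors. Its log2 difference was -2.23 ± 0.27 in R10 (SE, limma adjusted p = 2.80e-06) and -3.17 in R9 (limma adjusted p = 0.00751).

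Hes5 had no read in any of the 9 stem cell libraries. In the R10 progenitors its levels were 3.08 (OKMS), 1.75 (OKS), 4.45 and 0.574 CPM (wild type), or 26 reads in all. That makes stem cells at least 18.02-fold lower, with the floor at 3 reads over the group. In R9 the progenitors held 5 reads of Hes5. The gene did not pass the filter in R10, so it has no fitted test there, and the R9 difference did not pass (log2 -0.97, limma adjusted p = 0.351).

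The direction of Hes1 depended on the scale. On gene CPM it ranged from 82.5 to 194 with a median of 159 in the R10 stem cells, against 199 (OKMS), 154 (OKS), 48.0 and 56.2 CPM (wild type) in progenitors, which overlapped (log2 difference 0.60, limma adjusted p = 0.121). Against the wild-type progenitors alone the CPM difference was 1.47 and passed (limma adjusted p = 0.000429). On summed TPM the 6 numbered stem cell libraries stood at 9.42 to 21.6, the R1 library without n number at 87.9, and the progenitors at 64.9 to 110.2. The difference on that scale was -2.17 (limma adjusted p = 0.000773), so against all progenitors 1 scale gave no call and the other a call of lower in stem cells. In R9, where the scales lie closer, Hes1 stood at 159 and 120.1 CPM in stem cells and at 78.1 to 129.7 CPM in progenitors (log2 difference 0.28, limma adjusted p = 0.411). The order of the R9 means turned with the scale as well. They were 140 CPM in stem cells and 116 CPM in progenitors, but 103 and 135 on summed TPM, with overlap on both scales.

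The transcript behind most Hes1 TPM also differed between the numbered R10 stem cell libraries and the R10 progenitors. In R10 the largest share fell on a transcript of 451 bases and 2 exons that lacks a predicted open reading frame and matches part of the annotated splice chain. Its exons, chr16:30065344-30065698 and chr16:30065831-30065926 on the plus strand, lie within the first and second exons of the coding transcript of Hes1 in the GENCODE annotation, without its last exons. It held 75.3% ± 5.40 of Hes1 TPM in progenitors (SD, n = 4) and 28.5% ± 25.5 in stem cells (SD, n = 7). The 2-sided exact permutation p was 0.0242, also after adjustment, since no other member reached 10 TPM in both groups. Its share was 69.1 to 82.1% in progenitors, 81.1% in the R1 library without n number and 10.8 to 42.1% in the 6 numbered stem cell libraries. Those 6 belong to another R10 library set than the progenitors, so cell type and library set cannot be told apart here. Leaving out any 1 progenitor library brought the exact permutation p to 0.05 to 0.0667. In R9 the share was 24.0 and 33.0% in stem cells and 10.6 to 53.7% in progenitors, and the exact permutation p was 0.667.

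Several members differed between the media in wild-type progenitors. Wild-type progenitors were compared in R10 after 2 days in FBS-LIF with doxycycline and in progenitor medium, with 2 libraries each. Notch2 and Hey1 rose and Dll1 and Hes6 fell, 4 of 7 members tested, in a comparison that called 26.8% of 14688 genes (14.9% higher, 11.9% lower). The median of the 7 members was -0.44, against 0.12 over all genes. Dll1 passed the filter of at least 1 CPM through the libraries in progenitor medium alone. Leaving out any 1 of the 4 libraries sets 2 libraries against 1, which is assumed to vary like the others. No call remained then, while the differences were -3.63 to -2.30 for Dll1, 1.58 to 1.93 for Notch2, 1.28 to 1.46 for Hey1 and -1.18 to -0.82 for Hes6. In R9, with 1 library in the medium, no member was called. This comparison shares its progenitor libraries with the one of stem cells, and its medium libraries with the one of the factors below.

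Dll1 fell from 18.1 and 6.60 CPM to 0.783 and 0.329 CPM, a log2 difference of -2.97 ± 0.56 (SE, limma adjusted p = 0.0155). The reads were 80 against 3, a ratio of 22.5 with a 95% counting interval of 7.42 to 111. In R9 Dll1 stood at 5.35 and 5.81 CPM in progenitor medium and had no read in FBS-LIF. Jag1 was at 5.72 and 10.04 CPM before and at 4.70 and 1.98 CPM after (log2 -1.06, limma adjusted p = 0.174), while its summed TPM difference was -1.76 and passed (limma adjusted p = 0.0403).

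Notch2 rose from 11.1 and 11.2 CPM to 45.4 and 35.2 CPM (log2 1.75 ± 0.29, SE, limma adjusted p = 0.0111). Its R9 values were 4.01 and 2.90 CPM in progenitor medium and 15.6 CPM in FBS-LIF, a difference of 1.90 that did not pass with 1 library (limma adjusted p = 0.186). Notch1 was at 74.3 and 63.4 CPM before and at 152 and 69.5 CPM after. Of its libraries in FBS-LIF 1 lay within the range of the controls, and the difference of 0.58 did not pass (limma adjusted p = 0.315).

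Hey1 rose from 9.53 and 10.9 CPM to 26.6 and 29.3 CPM in R10 (log2 1.37 ± 0.30, SE, limma adjusted p = 0.0239), or by 1.28 on summed TPM, which did not pass (limma adjusted p = 0.0593), nor did it with DESeq2 on the recovered reads (1.40, adjusted p = 0.0517). The R9 values went the other way without a call, with 25.4 and 9.68 CPM before and 11.3 CPM after (log2 -0.45, limma adjusted p = 0.762). Hes6 fell from 76.2 and 59.1 CPM to 36.0 and 30.3 CPM (log2 -1.001 ± 0.25, SE, limma adjusted p = 0.0361). Neither the summed TPM difference of Hes6, -0.83 (limma adjusted p = 0.0977), nor the R9 one passed (48.1 and 48.4 CPM before, 38.2 CPM after, log2 -0.33, limma adjusted p = 0.283). Hes1 was at 48.0 and 56.2 CPM before and 48.5 and 29.6 CPM after (log2 -0.44, limma adjusted p = 0.329), and on summed TPM the difference was -0.59 (limma adjusted p = 0.150). In R9 it was at 129.7 and 128.7 CPM before and 55.2 CPM after (log2 -1.21, limma adjusted p = 0.0789). With both kinds together the Hes1 difference was -0.75, under the fold threshold (limma adjusted p = 0.0320). For Hes5 there were 16 reads before and 1 after, a ratio of 13.5 with a 95% counting interval of 2.09 to 565, and no fitted test.

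Other cell type markers moved with this comparison. Proliferation markers, all 5 of them above 1 CPM on average in each group, summed to 2318 to 2440 CPM in progenitor medium and to 40.8 to 48.9 CPM in FBS-LIF. Astrocyte markers summed to 124 to 156 CPM, with 5 of 6 above 1 CPM and Aqp4 at 0, and to 2179 to 4230 CPM with 6 of 6. Mesenchymal markers summed to 14.9 to 16.6 CPM, with 2 of 6 above 1 CPM, and to 74.0 to 168 CPM with 5 of 6, and Col1a2 was at 0 in both. Endothelial markers summed to 1.91 to 3.44 CPM, with 1 of 4 above 1 CPM, and to 8.24 to 12.9 CPM with 2 of 4, and Cdh5 was at 0 in both. Their part in the members' differences was not tested.

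The highest Hes1 and Hes5 levels of both library kinds were in factor libraries. At day 2 in R10, the OKMS and OKS libraries were compared with both wild-type libraries in the same medium. Hes1 and Hes5 rose and no member fell, 2 of 9 tested, in a comparison that called 0.740% of 15402 genes (0.714% higher, 0.0260% lower). The median of the 9 members was 0.89, against 0.092 over all genes. Hes5, Dll1 and Dll3 passed the filter of at least 1 CPM through the factor libraries alone. Their place in the count and in the median rests on their being high there.

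Hes5 stood at 46.6 (OKMS) and 69.0 CPM (OKS), against 0.391 and 0 CPM in the wild type. The reads were 244 against 1, a ratio of 346 with a 95% counting interval of 61.5 to 13712, and the log2 difference was 5.61 ± 0.59 (SE, limma adjusted p = 0.00435). On summed TPM the levels were 50.8 and 101.4 against 0 in both, and the difference of 6.19 did not pass (limma adjusted p = 0.0651). The factor libraries stood above the wild type on both scales, and 11 genes in all passed on TPM against 114 on CPM.

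Hes1 stood at 492 (OKMS) and 852 CPM (OKS), against 48.5 and 29.6 CPM in the wild type, a log2 difference of 4.06 ± 0.43 (SE, limma adjusted p = 0.00435). The factor and wild-type libraries belong to different R10 sets by mitochondrial share (1.51 and 1.64% against 0.319 and 0.165%), so the library set and the factors cannot be told apart here. That limit holds for Hes5 and for every other gene of this comparison as well. On summed TPM Hes1 was 130.4 and 277 against 51.6 and 41.5, a difference of 2.02 that did not pass (limma adjusted p = 0.214). The groups did not overlap on either scale, with the gap smaller on TPM.

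In R9, with 1 wild-type library, Hes1 was 84.8 (OKMS) and 176 CPM (OKS) against 55.2 CPM, and Hes5 was 3.39 and 2.67 CPM (3 and 2 reads) against no read. Their differences were 1.14 and 2.01 on the log2 scale and neither passed (limma adjusted p = 0.777 and 0.473). The R10 differences exceeded these by 2.92 for Hes1 and 3.61 for Hes5, but neither gap passed over all genes (limma interaction, adjusted p above 0.99 for both, 0.00% of genes called). Leaving out 1 R10 library sets 2 against 1, with the lone library assumed to vary like the others. No member was called then without the OKMS library, the OKS library or wild-type replicate 3, while the differences over all 4 such fits were 3.66 to 4.45 for Hes1 and 5.34 to 5.89 for Hes5.

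The other members were not called at day 2. Jag1 stood at 22.9 and 19.4 CPM with factors and at 4.70 and 1.98 CPM without (log2 2.42, limma adjusted p = 0.106), and Dll1 at 4.74 and 11.6 CPM against 0.783 and 0.329 CPM (log2 2.46, limma adjusted p = 0.120). For Dll1 the pooled reads were 37 against 3, a ratio of 17.5 with a 95% counting interval of 5.53 to 88.6. Hey1 was at 42.7 and 64.9 CPM against 26.6 and 29.3 CPM (log2 0.89, limma adjusted p = 0.356). Notch1, Notch2, Dll3 and Hes6 differed by -0.32 to 0.73 on the log2 scale.

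Proliferation markers summed to 249.7 to 1224 CPM in the factor libraries against 40.8 to 48.9 CPM in the wild type, and mesenchymal markers to 289 to 350 CPM against 74.0 to 168 CPM, with 5 of 6 above 1 CPM in each group. Epithelial markers summed to 5.97 to 19.8 CPM, with 4 of 5 above 1 CPM, against 0 to 0.391 CPM with Cdh1, Epcam, Krt18 and Cldn6 at 0. Astrocyte markers summed to 578 to 1406 CPM with factors against 2179 to 4230 CPM, with 6 of 6 above 1 CPM in both. Pluripotency markers summed to 159.7 to 175 CPM, with 7 of 8 above 1 CPM, against 14.1 to 21.1 CPM with 5 of 8. Neuron markers summed to 294 to 307 CPM against 143 to 271 CPM, and oligodendrocyte lineage markers to 14.2 to 27.2 CPM against 4.31 to 8.57 CPM. None of these 7 sets overlapped between the groups, and their part was not tested.

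**Figure D3:**
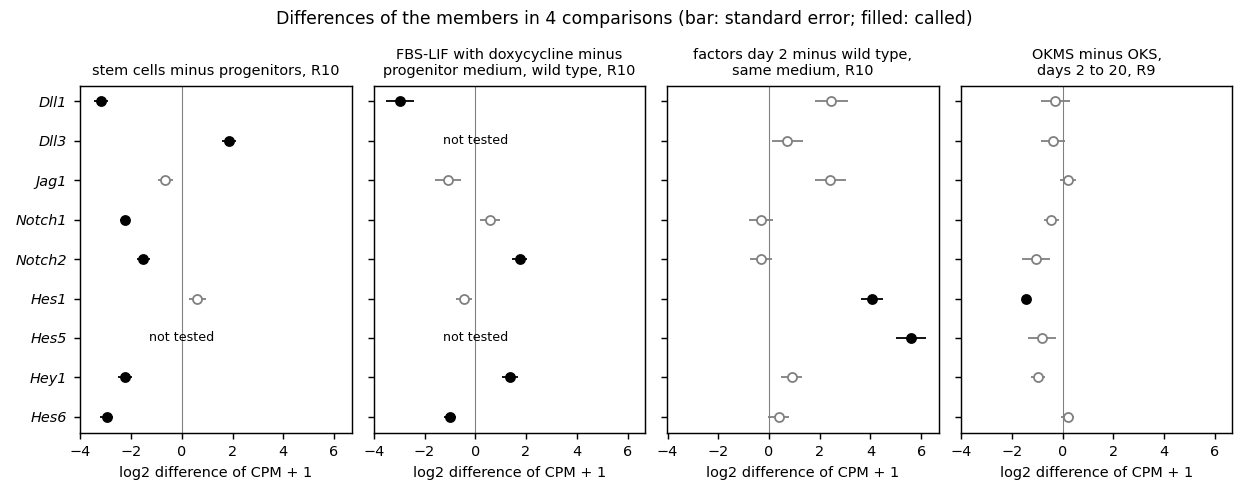
Log2 differences of CPM + 1 (x axis) for each member (y axis) in 4 comparisons, with bars for the standard error, filled points for called members and open points for those not called. In the factor comparison Hes5 and Hes1 stand at 5.61 and 4.06, and in the stem cell comparison Dll3 at 1.85 is the one called member to the right of 0.

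Each factor-carrying line was also compared with its own uninduced progenitors, as 4 pairs of day 2 and day 0. Day 0 was in progenitor medium and day 2 in FBS-LIF with doxycycline. Medium and factors therefore cannot be told apart in these pairs, for any gene. The pairs are 2 lines in each library kind, and the labels do not say whether R9 and R10 libraries of a condition share RNA, so these may not be 4 separate inductions. This holds too for the other comparisons below that join both kinds. Hes1 and Hes5 rose, 2 of 9 members tested, while 20.9% of 14607 genes were called (14.0% higher, 6.94% lower). The median of the members was 0.60, against 0.071 over all genes. On the day 0 libraries alone, Hes5 and Dll3 would not have passed the filter of at least 1 CPM. The place of Hes5 in the count and in the median rests on its being high at day 2.

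Hes5 rose from 1.35 to 3.39 CPM (OKMS, 1 to 3 reads) and from 0 to 2.67 CPM (OKS, 0 to 2 reads) in R9. In R10 it rose from 3.08 to 46.6 CPM (OKMS) and from 1.75 to 69.0 CPM (OKS). All 4 pairs moved up, most in R10, and the log2 difference was 2.75 ± 0.57 (SE, limma adjusted p = 0.00486), or 2.77 on summed TPM (limma adjusted p = 0.0357). Hes1 went from 78.1 to 84.8 CPM and from 128 to 176 CPM in the OKMS and OKS pairs of R9, and from 199 to 492 CPM and from 154 to 852 CPM in those of R10. Its log2 difference was 1.08 ± 0.31 (SE, limma adjusted p = 0.0258). On summed TPM the Hes1 difference was 0.46 and did not pass (limma adjusted p = 0.289), nor did it on CPM without the R10 OKS pair (0.62, limma adjusted p = 0.118).

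Jag1 was 15.8 to 22.9 CPM at day 2 and 9.23 to 15.2 CPM at day 0, with no overlap (log2 0.69, limma adjusted p = 0.117). Hey1 differed by 1.15 (limma adjusted p = 0.0562) and passed at 1.67 without the R9 OKMS pair (limma adjusted p = 0.00738). Here the levels were 20.2 and 15.2 CPM at day 0 and 14.7 and 28.1 CPM at day 2 for the OKMS and OKS pairs of R9. In R10 they were 10.5 and 12.9 CPM at day 0 and 42.7 and 64.9 CPM at day 2. Notch1, Notch2, Dll1, Dll3 and Hes6 were not called, at -0.52 to 0.60. Without the R9 OKS pair Notch2 passed, at 1.13 (limma adjusted p = 0.0309).

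Markers of other cell types moved with these pairs as well. Proliferation markers, with 5 of 5 above 1 CPM throughout, summed to 1883 to 1954 CPM at day 0 and 381 to 1065 CPM at day 2 in R9, and to 2048 to 2249 CPM and 249.7 to 1224 CPM in R10. Astrocyte markers summed to 140.01 to 167 CPM at day 0, with Gfap and Aqp4 at 0, and 780 to 1489 CPM at day 2 in R9, and to 231 to 246 CPM and 578 to 1406 CPM in R10. Mesenchymal markers summed to 78.1 to 89.4 CPM and 615 to 777 CPM in R9, and to 26.4 to 29.8 CPM and 289 to 350 CPM in R10. Pluripotency markers summed to 14.8 to 33.7 CPM and 98.3 to 139 CPM in R9, and to 17.1 to 28.0 CPM and 159.7 to 175 CPM in R10. Neuron markers were lower at day 2, at 297 to 335 CPM and 148 to 264 CPM in R9 and 391 to 416 CPM and 294 to 307 CPM in R10. In R10 alone, endothelial markers separated, at 1.75 to 3.08 CPM and 8.58 to 9.48 CPM. So did oligodendrocyte lineage markers there, at 6.43 to 7.47 CPM and 14.2 to 27.2 CPM. Epithelial markers separated in R9 alone, at 0 CPM and 2.67 to 12.4 CPM. Their part in the Hes1 and Hes5 differences was not tested.

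Over the R9 time course Hes1 first rose and Notch1 and Hey1 were lowest at the end. A limma F test over the 6 days against day 0, with both systems, called 3 of 9 members, 1 higher and 2 lower, where 10.7% of 19357 genes were called (5.50% higher, 5.24% lower). The median of the members' largest differences was -1.45, against 0.63 over all genes. Medium and factors both changed after day 0, so they cannot be told apart in these differences.

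Cell type markers moved over the same course. Neural progenitor markers summed to 7017 to 7265 CPM at day 0 and 272 to 5206 CPM over days 10 to 20, with 7 of 8 above 1 CPM at both and Sox1 at 0 at day 0. Pluripotency markers summed to 14.8 to 33.7 CPM, with 5 of 8 above 1 CPM and Tfcp2l1 at 0, and to 100.4 to 9583 CPM with 8 of 8. Epithelial markers were at 0 in all 5 at day 0 and summed to 1.91 to 382 CPM at days 4 and 6 and 4.46 to 1240.3 CPM over days 10 to 20, with 5 of 5 above 1 CPM. Endothelial markers summed to 2.69 to 3.37 CPM, 7.63 to 25.0 CPM and 9.93 to 27.4 CPM in the same order, with 1, 2 and 3 of 4 above 1 CPM. At days 4 and 6 astrocyte markers summed to 321 to 1720.3 CPM (5 of 6) against 140.01 to 167 CPM at day 0, and mesenchymal markers to 296 to 1375 CPM (4 of 6) against 78.1 to 89.4 CPM. Their part in the members' changes was not tested.

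Hes1 in the OKS series read 128, 176, 329, 404, 459.6, 364 and 138 CPM at days 0, 2, 4, 6, 10, 14 and 20. In the OKMS series it read 78.1, 84.8, 113, 203, 92.8, 123 and 60.3 CPM at the same days. Both series were higher in between than at day 0 and day 20, and the largest shared difference was 1.51 ± 0.34 at day 6 (SE, limma F test adjusted p = 0.0348).

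Hes5 was highest at day 6, at 17.7 CPM in OKMS (13 reads) and 10.7 CPM in OKS (8 reads). In OKS, Hes5 stood nearly as high at day 4 (10.5 CPM, 11 reads) and day 14 (9.93 CPM, 12 reads). It had no read in either system at day 20. Its largest difference of 3.27 at day 6 did not pass (limma F test adjusted p = 0.171). In R10 the highest Hes5 values came at day 2, followed by 4.26 CPM in OKMS at day 4, 0 and 12.8 CPM in OKMS and OKS at day 6, and 0 in OKMS at day 10 and in both at day 18. The day of the highest Hes5 value therefore differed between the library kinds, though the R9 values rest on few reads.

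Notch1 stood at 76.7 (OKMS) and 65.8 CPM (OKS) at day 0, between 14.6 and 61.0 CPM from day 2 to day 14, and at 4.93 and 5.75 CPM at day 20 (log2 -3.51 ± 0.50, SE, limma F test adjusted p = 0.0115). Hey1 fell to 2.46 and 5.03 CPM at day 20 from 20.2 and 15.2 CPM at day 0 (log2 -2.02 ± 0.51, SE, limma F test adjusted p = 0.0472). Between these days Hey1 reached 42.4 CPM in OKS at day 10, and the call rests on day 20: without it the largest shared difference was 0.59. The limma F test adjusted p of Hey1 was 0.0541 to 0.0713 without 1 of days 2, 4, 10 and 14, and that of Hes1 was 0.0535 to 0.1596 without 1 of days 2, 6, 14 and 20. Notch1 lost its call without day 20 (limma F test adjusted p = 0.265), and on summed TPM 0 members of the time course were called. With quantile normalization or median centring Notch1 alone was called, and DESeq2 on the recovered reads did not call Hey1. In the R10 libraries of days 0, 2, 6 and 18 the largest Hey1 difference had the other sign, at 2.09 (limma F test adjusted p = 0.0672). Jag1 was highest at day 4, at 31.3 and 27.7 CPM, and did not pass (limma F test adjusted p = 0.0977). Dll3 had no read in OKMS at days 4 and 6, and its largest shared difference was -1.20 at day 4 (limma F test adjusted p = 0.267). At days 14 and 20 Dll3 stood at 9.50 and 2.46 CPM in OKMS and at 3.31 and 7.90 CPM in OKS.

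The factor systems differed in Hes1. With the 6 R9 days as pairs, Hes1 was lower in OKMS than in OKS by 1.43 ± 0.19 on the log2 scale (SE, limma adjusted p = 0.000811). Each system had 1 library per day, so days stand in for replicates and the p-value measures the spread between days. The factor set cannot be told apart from the line that carries it. OKS was higher at 6 of 6 days, by 2.08-, 2.92-, 1.99-, 4.95-, 2.95- and 2.29-fold at days 2, 4, 6, 10, 14 and 20. This was the 1 member of 9 called, where 18% of 14277 genes were called (6.93% higher in OKMS, 11.0% lower). On summed TPM the difference was -1.73 and passed (limma adjusted p = 0.00452). The median of the members was -0.44, against -0.11 over all genes.

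In R10 Hes1 was higher in OKS by 1.73-, 6.35- and 3.35-fold at days 2, 6 and 18. On summed TPM the values were 130.4 (OKMS) and 277 (OKS) at day 2, 62.6 and 307 at day 6, and 22.3 and 28.5 at day 18, so the gap at day 18 was far smaller on that scale. At day 0 the order was not the same in both kinds, with 78.1 (OKMS) and 128 CPM (OKS) in R9 and 199 and 154 CPM in R10. In 2i-LIF the OKS libraries were lower, with 119 (OKMS) and 94.3 CPM (OKS) in R9 at day 20 and 254 and 199 CPM in R10 at day 18, which is 1 library each. The R10 order was the other way on summed TPM, at 18.4 (OKMS) and 22.2 (OKS). Hey1 was also higher in OKS at 6 of 6 R9 days, with a log2 difference of -0.96 that stayed under the fold threshold (limma adjusted p = 0.0236), and without day 4 it was -1.10 and passed (limma adjusted p = 0.0365).

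**Figure D4:**
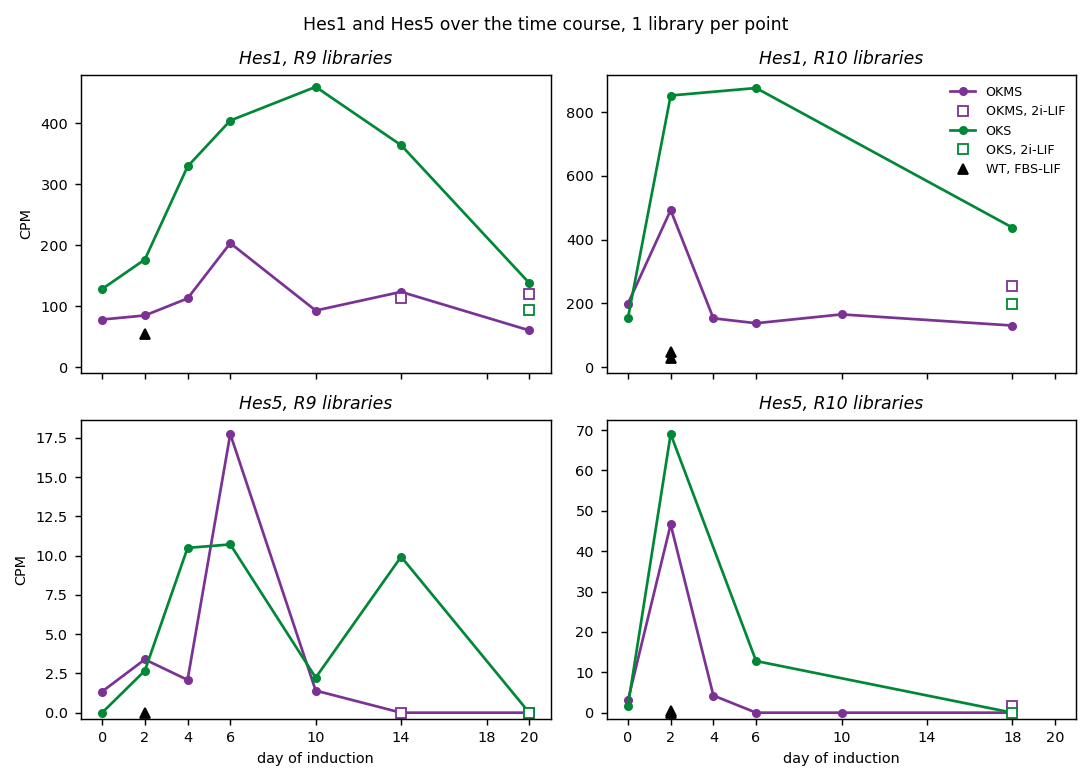
CPM of Hes1 and Hes5 (y axis, linear, scaled per panel) by day of induction (x axis) in R9 and R10, with 1 library per point: filled circles for OKMS and OKS in FBS-LIF with doxycycline and at day 0, open squares for 2i-LIF, and triangles for the wild type in FBS-LIF with doxycycline. Hes1 lies higher in OKS than in OKMS at each of the 6 induced R9 days, and Hes5 in R10 peaks at day 2 with 46.6 and 69.0 CPM.

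Neither late medium nor the uninduced factor cassette gave a called member in the fits over both library kinds. In 5 pairs of 2i-LIF and FBS-LIF with doxycycline at days 14 to 20, 0 of 7 members tested passed, where 12.3% of 14935 genes did (5.95% higher, 6.32% lower). Hey1 had the largest limma difference in size among the members, at -1.06 (adjusted p = 0.212), and Dll3 and Hes6 stood at 0.59 and -0.58. Hes1 ranged from 94.3 to 254 CPM in 2i-LIF and from 60.3 to 438 CPM in FBS-LIF, and its difference was 0.025 (limma adjusted p = 0.965), or 0.26 on summed TPM (limma adjusted p = 0.715). Pair by pair on CPM, Hes1 was lower in 2i-LIF in OKS at days 18 and 20 (log2 -1.14 and -0.54). The OKMS pairs stood at -0.12, 0.95 and 0.97 at days 14, 18 and 20. No unadjusted p of the 7 was under 0.05, and edgeR and DESeq2 on the recovered reads also called 0.

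Uninduced OKMS and OKS progenitors against wild-type progenitors, 4 libraries each, gave 0 of 9 members and 0.00% of 13647 genes with limma, and 0 members with edgeR and DESeq2. Of the 9, 1 member, Notch1, had an unadjusted p under 0.05. Hes1 differed by 0.69 (limma adjusted p = 0.610) and Notch1 by 0.56 (limma adjusted p = 0.547). In R10 alone Hes1 stood at 199 and 154 CPM in the factor-carrying lines and at 48.0 and 56.2 CPM in the wild type, and was called at 1.74. Those libraries stood on summed TPM at 110.05 and 110.2 against 64.9 and 76.4. Those libraries again belong to different sets, with 1.08 and 1.12% of reads on mitochondrial genes against 0.273 and 0.153%, and the line and the set cannot be told apart. On summed TPM over both kinds the Hes1 difference was -0.0077 (limma adjusted p = 0.998).

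A wider list of 64 other Notch pathway genes, of which 58 had a row, was counted in the same comparisons. In R10 stem cells 21 of 52 tested were lower than in progenitors and 4 higher, with a median of -0.60. That is 48.1% of the list called against 45.8% of all genes, whose median was 0.0059. The largest falls were in Olig1 (-7.89) and Olig2 (-7.15), transcription factors of the oligodendrocyte lineage that Notch restrains, and Lfng (-6.05), a sugar transferase that tunes how receptors read ligands. The largest rises were in Dtx1 (2.84), a ubiquitin ligase of the pathway, the ligand Jag2 (1.52) and the receptor Notch4 (1.06). In the wild-type medium comparison 7 of 52 rose and 9 fell, 30.8% against 26.8% of all genes, with a median of 0.092 against 0.12 over all genes. Aph1c (1.65), a gamma-secretase subunit, Dlk2 (1.65) and Bhlhe41 (1.64) led upward. Downward the leading genes were Olig2 (-4.62), the corepressor Tle4 (-3.09) and Nrarp (-2.98).

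Nrarp, a Notch target that feeds back to dampen the signal, was the 1 of 53 called for the factors at day 2, or 1.89% against 0.740% of all genes (median 0.079 against 0.092). Its levels were 19.8 (OKMS) and 8.58 CPM (OKS) with factors and 0 and 0.329 CPM in the wild type, 48 reads against 1. The ratio was 68.0 with a 95% counting interval of 11.6 to 2742, and the log2 difference was 3.61 (limma adjusted p = 0.0369). Nrarp passed the filter of at least 1 CPM through the factor libraries alone. The library set and the factors cannot be told apart for it either. On summed TPM no gene of the list passed, nor did any with a pseudocount of 0.25 or with any 1 of the 4 libraries left out. Over the 2 days from the lines' own progenitors Nrarp differed by 0.40 and did not pass (limma adjusted p = 0.540).

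At day 2 against day 0, 7 of 51 rose, led by Dlk2 (3.64), Dlk1 (2.89) and Bhlhe41 (1.74), and 7 fell, led by Olig2 (-4.63) and Olig1 (-3.93), with a median of 0.13. That is 27.5% called against 20.9% of all genes, whose median was 0.071. Dlk1 and Dlk2 encode membrane proteins related to the ligands. Over the R9 course 2 of 56 rose (Dlk2, 4.55, and Dtx3, 1.63) and 8 fell, led by Olig1 (-8.37), Olig2 (-7.68) and the corepressor Tle2 (-5.36), with a median of -0.59 against 0.63 over all genes and 17.9% called against 10.7%. Between the systems, 12 of 54 were lower in OKMS, led by Olig1 (-2.22), Olig2 (-1.87) and Tle2 (-1.87), and 2 were higher, Jag2 (1.82) and Mfng (1.79), with a median of -0.50 against -0.11 over all genes and 25.9% called against 18%. In 2i-LIF 3 of 48 were lower and 0 higher: Bhlhe40 (-2.28), Neurod1 (-1.78) and Numbl (-1.25), with a median of -0.26 against -0.027 over all genes and 6.25% called against 12.3%. None of 52 passed between uninduced lines and wild type with limma, and none had an unadjusted p under 0.05.

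By CPM level, Hes1 in R10 was lowest in wild type in FBS-LIF (mean 39.1 CPM) and wild-type progenitors (52.1), then came stem cells (150.1), uninduced carriers (177), 2i-LIF (226), factors at days 10 to 20 (245), at days 4 and 6 (389) and at day 2 (672). On CPM all neighbours in this order overlapped in range except wild-type progenitors and stem cells. On summed TPM that order turned for the 6 numbered stem cell libraries, at 9.42 to 21.6 against 64.9 and 76.4 in wild-type progenitors, while the R1 library without n number stood at 87.9. Below the wild-type progenitors on that scale were also both media at day 18, at 18.4 to 28.5, and OKMS at days 4, 6 and 10, at 58.3, 62.6 and 50.5. In R9 the order was wild type in FBS-LIF (55.2), uninduced carriers (103), 2i-LIF (109), wild-type progenitors (129), factors at day 2 (131), stem cells (140), factors at days 10 to 20 (206) and factors at days 4 and 6 (262). Here the neighbours that did not overlap were the first pair, and 2i-LIF and wild-type progenitors. Hes5 in R10 was at 57.8 CPM at day 2 and at 5.69 CPM at days 4 and 6, at 2.51 CPM in wild-type progenitors and 2.41 CPM in uninduced carriers, and under 1 CPM in all other conditions.

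The genes whose log2(CPM + 1) followed Hes5 most closely, by the smaller of the Pearson correlations over 22 R9 and over 23 R10 libraries, were Col15a1 (0.79 and 0.83), Frmd3 (0.72 and 0.74), Pak3 (0.81 and 0.71), C1qtnf5 (0.73 and 0.70) and Rapgef4 (0.70 and 0.69). Among the 9956 genes ranked, Hey1 came at place 26 for Hes5, Jag1 at place 89 and Hes1 at place 226. Notch1, Notch2 and Hes6 came at places 2351, 2366 and 3433. For Hes1 the closest were Tac2 (0.78 and 0.75), Gpr50 (0.72 and 0.72), Tmprss5 (0.76 and 0.67), Rock1 (0.67 and 0.81) and Nfkbia (0.71 and 0.66). Of the members ranked for Hes1, Jag1 came at place 678, Hey1 at 1585, Notch2 at 2709, Hes6 at 3615 and Notch1 at 5163. These are descriptions over libraries that share conditions, library sets and depth.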

How the data were processed

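Gene CPM and transcript TPM tables were deposited by the authors. Per the submitters' processing notes, reads were aligned with minimap2 2.24-r1122 to mm10, and other steps are not given in the sources used here. The gene CPM held 45 columns of the study's libraries and 13 further columns that matched no sample and were not used. All CPM were whole multiples of 1 read within 0.02 reads (100% of values), which gave each library's reads. The deposited TPM are corrected for length, with a median summed TPM over CPM of 2.56 for genes with a main transcript of up to 1000 bases and 0.321 above 4000. Exon positions and transcript lengths came from the authors' deposited annotation.

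Log2(CPM + 1) was tested with limma 3.58.1 (lmFit, eBayes with trend, R 4.3.3), two-sided, over genes of at least 1 CPM in as many libraries as the smaller group, with Benjamini-Hochberg adjustment over all genes tested. A difference on this scale understates the change of low genes. OKMS against OKS used day as a block, and day 2 against day 0 and the late media used pairs. Shares were tested by exact permutation (SciPy 1.17.1). Alternatives were edgeR 4.0.16, DESeq2 1.42.0, other pseudocounts (0.25), filters, scalings, library kinds and left-out libraries; summed TPM and left-out libraries for the transcript share were chosen after seeing the data. Tests were checked on simulated data. The members and gene lists were chosen with earlier results of these data known. All members are named, with up to 3 pathway genes per direction and the 5 genes most like Hes1 and Hes5.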

Additional observations from a re-analysis of the deposited data

Results flagged for a closer look

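In 29 groups of 4 or 7 libraries the highest or lowest value was compared with its neighbours by Dixon's test at the 95% level, and 4 stood apart, where chance gives about 1 in 20. The values were member levels and Hes1 transcript shares in R10 stem cells, R10 progenitors and R9 progenitors. The same libraries therefore recur between groups, and the progenitors pool wild-type and factor-carrying lines. The R1 stem cell library n1 of R10 was highest for Dll3, at 11.4 CPM. The R1 stem cell library of R10 without n number was highest for Notch2, at 8.22 CPM. Wild-type progenitor replicate 2 of R10 was highest for Dll1, at 18.1 CPM. The uninduced OKMS library of R9 was lowest for Hes1 among progenitors, at 78.1 CPM.

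The fall of Hes6 from progenitors to stem cells was larger in R10 than in R9 by an interaction test over all genes, with a difference between the library kinds of -1.92 on the log2 scale.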

How the results depend on the processing

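Over 69 results, 955 alternative values kept their side of the threshold, 68 fell below it, 17 passed it and 4 reversed. A further 49 moved. These were results that stayed uncalled but shifted by more than the residual SD of the main fit, together with the count of called transcript shares where it changed. A reversal was counted only where either fit made a call, so sign changes of uncalled results are not among them. The reversals were Hes1 in stem cells on summed TPM (-2.17), Hey1 in the medium comparison in R9 (-0.45), and Hey1 in the time course without day 20 (0.59) and in R10 libraries (2.09). The cause of these was not tested.

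Counts of members called moved as follows. For the medium (4 members) the count was 3 with DESeq2, 3 on summed TPM (with Jag1, without Hey1 and Hes6), 0 in R9, 2 with R9 and R10 together, 2 with all R10 libraries fitted together and 0 to 0 with each library left out. The replicate numbers were shared between these groups, and the replicate block gave 4. Deviations of same-numbered libraries correlated at 0.474, and with 2 pairs it cannot be told whether the numbers mark a shared batch. For the factors at day 2 (2) it was 0 on summed TPM, 0 in R9 and 0 to 2 with a library left out. All genes called there numbered 114, and from 0 (R9, or a library left out) to 1197 (all R10 libraries fitted together) under the alternatives. For day 2 against day 0 (2) it was 1 with a minimum of 5 CPM, 1 with median centring, 1 on summed TPM and 1 without the R10 OKS pair. For OKMS against OKS (1) it was 2 with a pseudocount of 0.25, 2 without day 4 and 0 in R10 at days 2, 6 and 18. For uninduced lines (0) it was 1 in R10 alone. For the time course (3) it was 1 with quantile normalization, 1 with median centring, 5 with edgeR, 0 on summed TPM, 1 without day 2, 1 without day 14 and 0 without day 20. For the transcript share (1) it was 0 in R9 and 0 to 1 with a library left out. The stem cell count of 6 was 6 to 7 with each library left out and 5 in R9. Depth limits Hes5, Dll1 and Dll3, which rest on few reads in R9.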
